A study of Mus musculus with 10 samples.

Results

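The genes described here are the mouse MHC class II genes and the factors that load them with peptide. They were taken by gene symbol from a table of 30984 genes measured by messenger RNA sequencing in mouse blood. The 10 genes are H2-Aa, H2-Ab1 and H2-Eb1, the chains of the class II molecules, then Cd74, H2-DMa, H2-DMb1, H2-DMb2, H2-Oa, H2-Ob and Ciita. All 10 had a row, and all 10 passed the filter on low counts that left 17268 genes for testing. Blood samples, 6 of them labelled burn wound healing, called burn here, and 4 labelled burn wound healing-NC, called NC here, were compared. The meaning of NC is not spelled out in the labels, and manganese chloride, named in the series text, is in no sample label. Both groups carry the words burn wound healing, so neither is labelled as unburned. The sources used here do not give strain, age or sex, nor whether the samples are separate animals, so that the p-values rest on a spread between samples that may be technical. The source label reads whole blood, other labels read lymphocyte and monocytes, and the title of the series names peripheral blood mononuclear cells.

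MHC class II molecules are pairs of an alpha and a beta chain that carry peptides from engulfed protein to the cell surface, where CD4+ T cells read them. The invariant chain Cd74 fills the groove of new class II molecules and guides them to the endosome, where the exchange factor H2-DM swaps its remnant for peptide. H2-DO binds H2-DM and holds it back, mostly in B cells, and Ciita is the coactivator that switches the whole group on. B cells make class II all the time, dendritic cells and monocytes to varying degrees, and mouse T cells hardly at all.

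The promoters of these genes share short sequences known as the X box, bound by the RFX complex, and the Y box, bound by NF-Y, on which Ciita assembles. Windows from 250 bases before to 50 after a gene's start were held in the RefSeq table of build GRCm38.p6 for 7 of the 10 genes. The stretches below are shown because they hold the Y letters, and in the first 4 also the X letters, of genes whose levels are compared afterwards. They are written 5′ to 3′ on the gene's strand, with the matched letters in capitals.
H2-Eb1, chr17:34305770-34305820, plus strand: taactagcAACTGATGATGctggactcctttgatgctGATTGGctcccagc
H2-DMb1, chr17:34153091-34153142, plus strand: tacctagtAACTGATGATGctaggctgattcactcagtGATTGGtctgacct
H2-DMb2, chr17:34145120-34145171, plus strand: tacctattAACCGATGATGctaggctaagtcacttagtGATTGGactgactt
H2-Ob, chr17:34238812-34238860, plus strand: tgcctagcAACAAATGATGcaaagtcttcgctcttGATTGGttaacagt
H2-Aa, chr17:34287859-34287905, minus strand: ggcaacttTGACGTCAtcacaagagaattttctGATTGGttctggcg
H2-Oa, chr17:34092292-34092348, plus strand: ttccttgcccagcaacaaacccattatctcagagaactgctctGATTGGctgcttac

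The Y letters GATTGG, or CCAATC on the other strand, lay in a window of all 7 genes, in H2-DMa in 1 of its windows only. They lay in 16.1% of the 32851 windows in the table. The X letters AACNNATGATG, or CATCATNNGTT on the other strand, lay in 4 of the 7 genes and in 0.137% of all windows. X letters followed by Y letters within 5 to 40 bases were found in 4 windows of the whole table, those of H2-Eb1, H2-DMb1, H2-DMb2 and H2-Ob. The gap between them was 18 bases in H2-Eb1, 19 in both H2-DMb genes and 16 in H2-Ob. In H2-Aa the palindrome TGACGTCA, the cyclic AMP response element, which 1.79% of windows hold, stood 17 bases before the Y letters. The matched letters do not overlap one another in these stretches. They were chosen after the windows had been read, and the X letters are the consensus of matches in the windows of these genes themselves. The 4 genes thus hold the X letters by construction, and the share of all windows is not a test. A match is a description of the sequence, not a measured binding site.

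Of the 10 genes, 8 lie on chromosome 17 within 224.3 kb of the class II region (build mm10, positions from GENCODE release 21). From the start of the region they run H2-Oa (34092340 to 34095234), H2-DMa (34119541 to 34139101), H2-DMb2 (34143307 to 34151555), H2-DMb1 (34153072 to 34160230), H2-Ob (34238903 to 34254414), H2-Ab1 (34257689 to 34269419), H2-Aa (34282744 to 34287823) and H2-Eb1 (34305867 to 34316674). H2-Aa is on the minus strand and the other 7 are on the plus strand. Ciita lies on chromosome 16 (10480059 to 10528418, plus strand) and Cd74 on chromosome 18 (60803848 to 60812652, plus strand). All 10 are annotated as protein coding, and a gene's count covers its exons.

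Library totals ran from 30677206 counts in NC 3 to 36379663 in burn 4. The 10 genes together took 0.391% of the counts in NC 2, the lowest share, and 0.677% in burn 2, the highest. Levels are given as CPM, counts scaled to a common library total with TMM factors, and differences as log2 of burn minus NC from edgeR. Haemoglobin genes, from red cells, took 7.17% to 12.8% of the counts. Markers of B cells summed to 4465 to 7068 CPM, of monocytes to 3698 to 5415 CPM and of T cells to 1332 to 2555 CPM, so the RNA was that of mixed blood cells and not of monocytes alone. In such bulk samples, fewer cells of a type and less RNA per cell cannot be told apart.

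All 10 genes had a higher value in burn, a direction that 54.7% of the 17268 genes shared, but none passed the threshold of an adjusted p under 0.05. The threshold was passed by 0 of all genes in edgeR (background 0%). The median log2 difference over the 10 genes was 0.35, beside 0.02 over all genes tested. At an unadjusted p under 0.05 there were 6 of the 10, all higher in burn, beside 4.25% of all genes in that direction. DESeq2 on the same counts called 0 of the 10, with adjusted p of 0.168 to 0.940, beside 0.492% of all genes. For 0 of the 10 did every burn library lie above every NC library, a separation that 1.34% of all genes showed, with 0.683% separated the other way. Since these genes were chosen with earlier results of the data known, their number is a description and not a test.

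**Figure D1:**
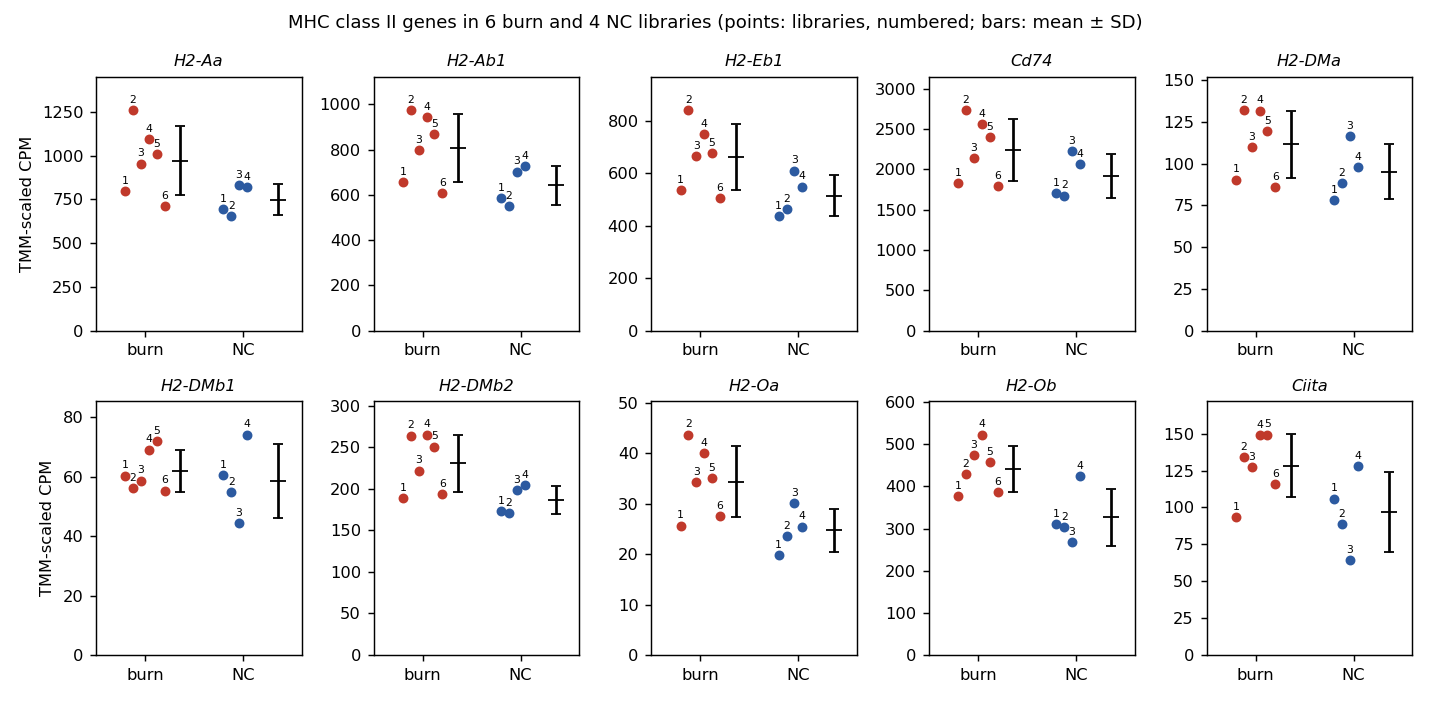
TMM-scaled CPM of the 10 genes in each of 6 burn (red) and 4 NC (blue) libraries, numbered by replicate, on linear axes from 0, with the mean and SD of each group. Every panel shows overlapping groups, with burn 2, 4 and 5 above burn 1 and 6 for 9 of the genes and a different order in H2-DMb1.

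The classical chains had the same pattern across libraries. H2-Aa, the alpha chain of the I-A molecule, stood at 714 CPM in the lowest burn library, 982 at the median and 1260.2 in the highest, and at 694, 652, 829.9 and 820.3 CPM in NC 1 to 4. Burn 1 and 6 lay below NC 3 and 4, and the other 4 burn libraries lay above all NC libraries. H2-Ab1, its beta chain, ran from 607 through a median of 834 to 974.8 CPM in burn and stood at 587, 551, 703 and 728 CPM in NC 1 to 4. H2-Eb1, the beta chain of the I-E molecule, ran from 504 through 671 to 840.2 CPM in burn and stood at 437, 462, 609.8 and 549 CPM in NC 1 to 4. For each of these chains 4 of 6 burn libraries exceeded the highest NC library.

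The log2 difference of H2-Aa was 0.38 (SE 0.16, 95% interval 0.03 to 0.72), from 972 ± 199 CPM in burn (SD, n = 6) and 749 ± 89 in NC (SD, n = 4), with an edgeR adjusted p of 0.423. H2-Eb1 differed by 0.36 (SE 0.16) with an edgeR adjusted p of 0.430, and H2-Ab1 by 0.33 (SE 0.15, interval -0.0026 to 0.67) with an edgeR adjusted p of 0.445. These differences were of the size of the spread between libraries and did not pass. The alpha chain partner of H2-Eb1, H2-Ea, whose gene is defective in some laboratory strains and which GENCODE types as a polymorphic pseudogene, had 0 to 11 counts in a library and was not tested. H2-Eb2, a beta chain gene beside H2-Eb1, had 69.2 ± 17.7 CPM in burn against 49.6 ± 9.1 in NC, a log2 difference of 0.48 (SE 0.19, edgeR adjusted p 0.409). It was highest in burn 2, at 91.6 CPM, and lowest in NC 2, at 38.4 CPM.

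Cd74, the invariant chain, was the most abundant of the 10 genes. It ran from 1788 through a median of 2266 to 2732 CPM in burn and stood at 1703, 1674, 2229 and 2059 CPM in NC 1 to 4. NC 3 and 4 lay among the burn libraries, and 3 of 6 burn libraries exceeded the highest NC library. The log2 difference was 0.23 (SE 0.15, 95% interval -0.11 to 0.56), with an edgeR adjusted p of 0.595, and was 0.13 without burn 2 and 0.14 without NC 2.

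The exchange factor H2-DM is measured by 3 genes, none of which passed. H2-DMa, its alpha chain, ran from 85.8 through a median of 115 to 132 CPM in burn and stood at 78.0, 88.3, 117 and 97.9 CPM in NC 1 to 4, a log2 difference of 0.23 (SE 0.15, edgeR adjusted p 0.577), which was 0.15 without burn 2 and 0.15 without NC 1. H2-DMb2, 1 of 2 neighbouring beta chain genes, ran from 189 through 237 to 266 CPM in burn and stood at 174, 171, 198 and 205 CPM in NC 1 to 4. All 6 burn libraries lay above the NC median of 186, and 4 lay above the highest NC library. Its log2 difference was 0.31 (SE 0.12, 95% interval 0.04 to 0.57), with an edgeR adjusted p of 0.401. H2-DMb1, the other beta chain gene, ran from 55.3 through 59.5 to 71.9 CPM in burn and stood at 60.6, 54.9, 44.3 and 74.2 CPM in NC 1 to 4. Both its highest and its lowest library were NC libraries. Its log2 difference was 0.08 (SE 0.13, edgeR adjusted p 0.852), the smallest of the 10, and was -0.06 without NC 3. The H2-DMb1 and H2-DMb2 transcripts are 94.4% identical over 1255 aligned bases, and 27.2% of the 50-base runs of H2-DMb1 also stand in H2-DMb2. The sources used here do not say how shared reads were counted, so the separate values of both genes are uncertain.

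Both chains of the inhibitor H2-DO had higher values in burn, and neither passed. H2-Oa, its alpha chain, ran from 25.6 through a median of 34.7 to 43.7 CPM in burn and stood at 19.8, 23.6, 30.1 and 25.5 CPM in NC 1 to 4. Burn 1 and 6 lay below NC 3, and the other 4 burn libraries lay above all NC libraries. The log2 difference was 0.48 (SE 0.16, 95% interval 0.12 to 0.83), from 34.4 ± 7.0 CPM in burn and 24.7 ± 4.3 in NC, with an unadjusted p of 0.013 and an adjusted p of 0.393 in edgeR. It lay at the 96.3th percentile of the differences of all genes. H2-Ob, the beta chain, ran from 378 through 444 to 523 CPM in burn and stood at 311, 304, 268 and 424 CPM in NC 1 to 4. All burn libraries lay above NC 1 to 3, and 4 lay above NC 4. Its log2 difference was 0.43 (SE 0.14, 95% interval 0.13 to 0.74), from 442 ± 56 CPM in burn and 327 ± 68 in NC, with an unadjusted p of 0.010 and an adjusted p of 0.393 in edgeR. Exons of H2-Oa share 22.8% of their bases with BC051537 on the other strand, and that gene had 7 to 21 counts in a library. The part of this overlap in the value of H2-Oa was not tested.

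Ciita, the coactivator, ran from 93.4 through a median of 131 to 149 CPM in burn and stood at 106, 88.5, 64.4 and 128 CPM in NC 1 to 4. Burn 1, 3 and 6 lay below NC 4, and burn 1 below NC 1 too, so 3 of 6 burn libraries exceeded the highest NC library. NC 3 was the lowest library by far. The log2 difference was 0.40 (SE 0.18, 95% interval 0.0050 to 0.80), with an edgeR adjusted p of 0.443, and was 0.22 without NC 3. NC 3 departed by gene length across all genes. Its median deviation from the mean of the libraries was 0.17 log2 units in the shortest of 5 length bins and -0.19 in the longest, and no other library reached 0.10 in either. Ciita, in the longest bin, and H2-Ob, in the bin before it, were at their lowest in NC 3, and so was H2-DMb1, which lies in the second bin. The part of gene length in these values was not tested.

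**Figure D2:**
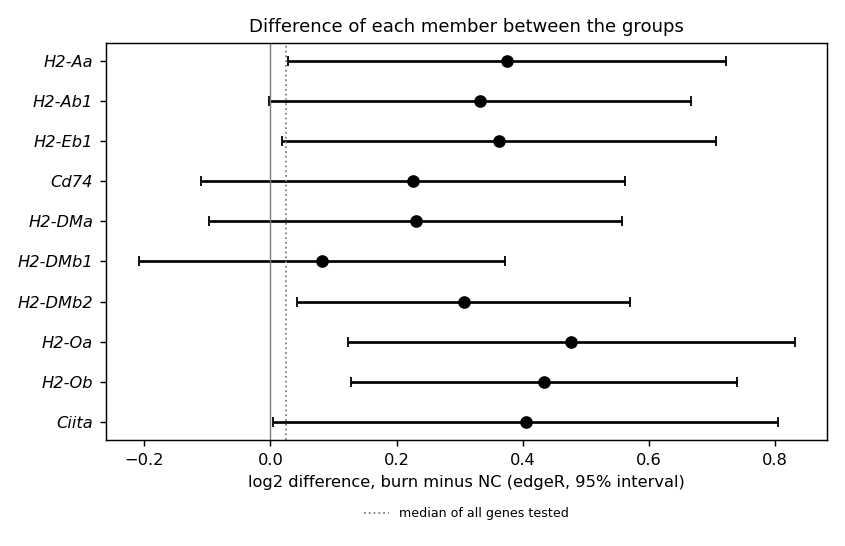
Log2 difference of burn minus NC for each of the 10 genes, with its 95% interval from edgeR; the solid line marks 0 and the dotted line the median of all genes tested, 0.02. All 10 points lie right of 0, from 0.08 for H2-DMb1 to 0.48 for H2-Oa, and none passed after adjustment over all genes.

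Per length, the genes spanned a wide range. The deposited FPKM divides counts by library total and by a gene length that equals all annotated exons joined. Mean FPKM over the 10 libraries was 1258 for Cd74, 310.3 for H2-Eb1, 289 for H2-Ab1, 233 for H2-Aa, 122 for H2-DMb2, 73.9 for H2-Ob, 36.1 for H2-DMb1, 30.5 for H2-DMa, 21.7 for H2-Oa and 12.2 for Ciita. The order thus ran from the invariant chain over the classical chains to the loading factors and the coactivator. Of the 9 pairs of neighbours in this order, 8 differed in an exact two-sided sign-flip test over the libraries, with adjusted p of 0.0025 to 0.0088. H2-DMb1 and H2-DMa did not pass, with H2-DMb1 higher in 8 of 10 libraries (exact permutation p 0.051). H2-Eb1 exceeded H2-Ab1 in 8 of 10 libraries, with an adjusted exact permutation p of 0.0088. The order depended on the length used. With the length of 1 protein coding transcript a gene, 1128 bases in place of 3798 for H2-Aa and 1171 in place of 1944 for H2-Eb1, the classical chains stood in the order H2-Aa, H2-Ab1, H2-Eb1, at levels of 783, 613 and 515 on that scale. Cd74 remained first, at 1725, and Ciita last, at 19.3. On that scale H2-DMb2 and H2-Ob, at 150.0 and 149, were the neighbours that did not pass (adjusted exact permutation p 0.72).

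Most of the genes varied together from library to library, within burn as well as between the groups. Averaged over the 10 genes, log2 CPM deviated from the gene's mean by 0.35 in burn 4, 0.34 in burn 2, 0.25 in burn 5 and 0.13 in burn 3. The mean deviation was 0.01 in NC 4, -0.14 in burn 1, -0.16 in burn 6, -0.16 in NC 3, -0.30 in NC 1 and -0.32 in NC 2. Burn 1 and 6 thus lay with the NC libraries. Burn 2 was the highest library for 6 genes, and NC 1, 2 and 3 were the lowest for 3, 4 and 3. The coefficient of variation within burn ran from 11.2% for H2-DMb1 to 20.4% for H2-Aa, and within NC from 9.25% for H2-DMb2 to 27.9% for Ciita.

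**Figure D3:**
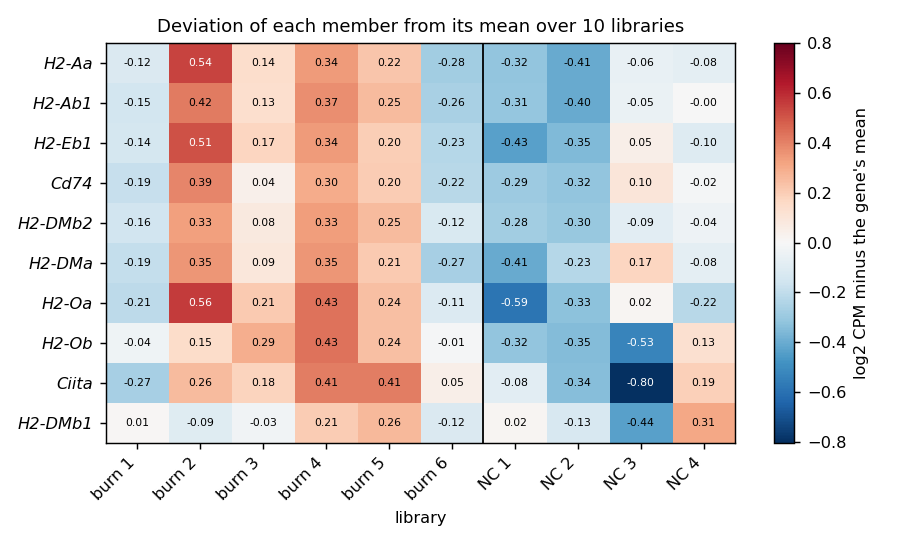
Log2 CPM of each gene minus its mean over the 10 libraries, as colour and number, with the burn libraries left of the line and NC right of it. The first 7 genes share 1 pattern, highest in burn 2 or 4, while H2-Ob, Ciita and H2-DMb1 have their lowest value in NC 3.

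The likeness of each gene to the core of H2-Aa, H2-Ab1, H2-Eb1 and Cd74 was measured as Pearson's r over the 10 libraries with the mean z-score of these 4. It was 0.97 for H2-DMb2, 0.95 for H2-DMa, 0.95 for H2-Oa, 0.67 for H2-Ob, 0.54 for Ciita and 0.23 for H2-DMb1. The ratio of H2-Aa to H2-Ab1, the chains of the same molecule, had the smallest spread, with an SD of 0.05 in log2 over the libraries. The SD of the log2 ratio to H2-Ab1 was 0.07 for H2-DMb2, 0.08 for Cd74 and for H2-Eb1, 0.11 for H2-DMa and 0.15 for H2-Oa. It was 0.22 for H2-Ob and 0.30 for Ciita and H2-DMb1. The 10 other genes most like the core, among 8628 with a mean of at least 10 CPM, were Fcmr, Cd79a, Snx19, Irf8, Rdh11, Tnks1bp1, Igkv5-39, Sap30bp, Hnrnpul1 and Actr2, with r of 0.98 to 0.93. Fcmr encodes an IgM receptor, at 244 ± 50 CPM in burn against 194 ± 26 in NC, and Cd79a a chain of the B cell receptor complex, at 589 ± 129 and 470.3 ± 88.4. Irf8 encodes a transcription factor of B cells and myeloid cells and stood at 179 ± 27 and 151 ± 11 CPM. None of the 10 passed, with edgeR adjusted p of 0.395 to 0.780, and 40 genes in all had r above 0.9. Genes with a group difference share it in this measure, so it is a description of these libraries.

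Ratios within a library do not depend on its scaling. Of 7 ratios compared between the groups, 2 passed after adjustment over the 7, both of an H2-DM chain to an H2-DO chain. The pairs were chosen with the genes' levels known. The FPKM ratio of H2-DMa to H2-Oa was 1.44, 1.23, 1.31, 1.34, 1.39 and 1.27 in burn 1 to 6 and 1.61, 1.53, 1.58 and 1.57 in NC 1 to 4. All 6 burn values lay below all 4 NC values. The log2 difference was -0.24, from a mean ratio of 1.33 ± 0.08 in burn (SD, n = 6) and 1.57 ± 0.03 in NC (SD, n = 4; exact two-sided permutation p 0.0048, the smallest that 210 splits allow, adjusted p 0.033). Set against each of 16960 genes in turn, H2-DMa had a ratio lower in every burn library for 0.0531% of them, and H2-Oa a ratio higher in every burn library for 4.27%. Without 1 library, the difference stayed between -0.26 and -0.22, with an adjusted exact permutation p of 0.028 to 0.083. It passed without burn 6 or NC 3 and did not pass without any of the other 8. Fewer splits are possible without any 1 library, and the adjusted p also depends on the p of the other ratios. The exact permutation p was 0.0079 both without burn 6, where the ratio passed, and without burn 1, where it did not. Exons of H2-DMa share 10.4% of their bases with Brd2 on the other strand, which had 292 CPM in burn against 288 in NC; the sources used here do not say whether the counting used strand.

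The ratio of H2-DMb1 to H2-Ob, the beta chains, was 0.511, 0.419, 0.395, 0.423, 0.502 and 0.459 in burn 1 to 6 and 0.624, 0.578, 0.528 and 0.560 in NC 1 to 4. The groups again did not overlap. The log2 difference was -0.35 (exact permutation p 0.0095, adjusted p 0.033), from 0.452 ± 0.048 in burn and 0.572 ± 0.040 in NC. Against each of the other genes, H2-DMb1 had a ratio lower in every burn library for 0.124% and H2-Ob a ratio higher in every burn library for 5.12%. The call was lost when counts of both beta chain genes were added, which avoids the split of shared reads. The summed counts stood at 0.665 ± 0.054 of those of H2-Ob in burn and 0.764 ± 0.103 in NC, and NC 4, at 0.657, lay among the burn libraries (log2 difference -0.20, adjusted exact permutation p 0.144). Without 1 library, the difference of H2-DMb1 to H2-Ob stayed between -0.38 and -0.30 and passed only without NC 3 (adjusted exact permutation p 0.042). The remaining 9 gave 0.056 to 0.083.

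The other 5 ratios did not pass. Cd74 to H2-Ab1 was 4.25 ± 0.14 in burn and 4.56 ± 0.23 in NC, and 5 burn libraries lay below the lowest NC library, NC 4 (log2 difference -0.10, exact permutation p 0.029, adjusted p 0.067). Without burn 6 it passed, with a difference of -0.12 and an adjusted exact permutation p of 0.028. H2-Aa to H2-Ab1 was 0.811 ± 0.034 and 0.790 ± 0.018, and H2-Eb1 to H2-Ab1 was 1.08 ± 0.04 and 1.06 ± 0.08 (adjusted exact permutation p 0.46 and 0.622). H2-DMb2 to H2-DMb1 was 3.60 ± 0.52 in burn and 3.18 ± 0.77 in NC (adjusted exact permutation p 0.442), with the highest values in burn 2, at 4.53, and NC 3, at 4.31. Ciita to H2-Ab1 was 0.043 ± 0.005 and 0.041 ± 0.011, with NC 3 lowest at 0.025 (adjusted exact permutation p 0.71).

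**Figure D4:**
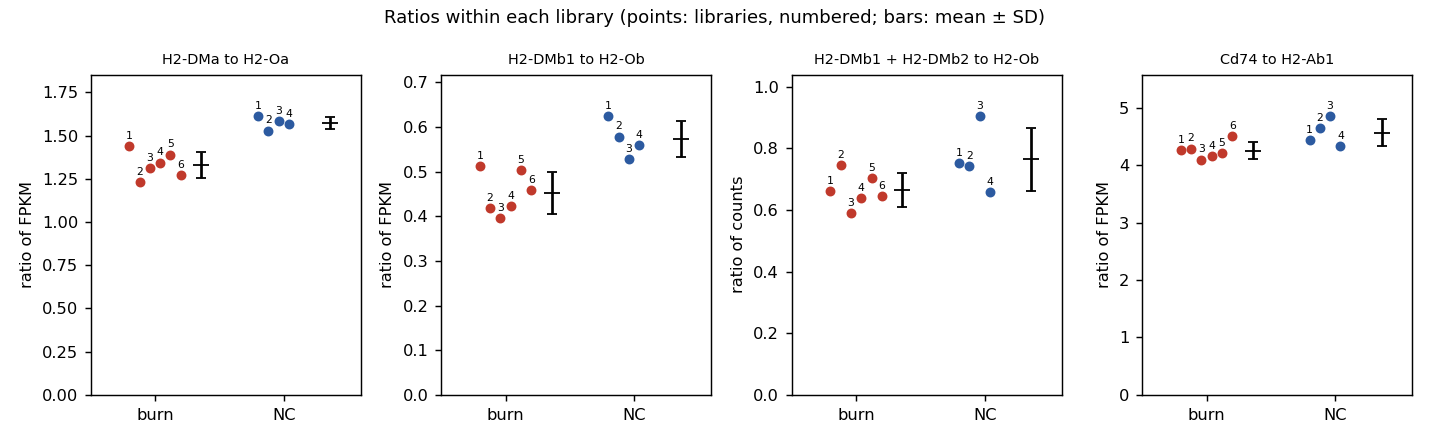
Ratios within each library (points, numbered by replicate; red, burn; blue, NC) with the mean and SD of each group, on linear axes from 0; 3 panels use FPKM and the summed H2-DMb panel uses counts. The groups do not overlap for H2-DMa to H2-Oa and H2-DMb1 to H2-Ob, and overlap once both H2-DMb genes are summed and for Cd74 to H2-Ab1.

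The other genes of the pathway did not move as 1 group. Of 16 transcription factors of class II genes, 10 had higher and 6 lower values in burn, with a median of 0.03. In edgeR 0 passed the threshold and 1, higher in burn, had an unadjusted p under 0.05, beside 4.25% of all genes in that direction. Rfx5, the DNA-binding subunit of the RFX complex, had 24.1 ± 3.2 CPM in burn against 18.9 ± 3.4 in NC, a log2 difference of 0.36 (SE 0.13, edgeR adjusted p 0.395). Its partners Rfxap and Rfxank differed by 0.05 and 0.04, and the Y box binding subunits Nfya, Nfyb and Nfyc by 0.001, -0.08 and -0.04. Pax5, the B cell identity factor, differed by 0.36 (SE 0.19) and Spi1, a myeloid and B cell factor, by -0.17 (SE 0.12). Of 13 genes of endosomal processing and class II turnover, 7 had higher and 6 lower values, with a median of 0.03 and 0 past the threshold. At an unadjusted p under 0.05 in edgeR were 2, both lower in burn, beside 7% of all genes in that direction. Ctss, the protease that trims the invariant chain, had 549 CPM in burn against 499 in NC, a difference of 0.14 (SE 0.14). Ctsd, an aspartic protease of the lysosome, had 169 ± 21 CPM in burn against 250 ± 67 in NC, a difference of -0.56 (SE 0.16, edgeR adjusted p 0.393). Cd9, a tetraspanin that associates with class II and is abundant on platelets, stood at 434 ± 102 and 925 ± 550 CPM, a difference of -1.09 (SE 0.33, edgeR adjusted p 0.393). The platelet list, with 5 tested genes and 5 lower values, summed to 2030 to 4295 CPM in burn and 2343 to 10078 in NC, and its part in the value of Cd9 was not tested.

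Of 6 genes of costimulation and lipid presentation, 5 had higher values and 1 a lower value in burn, with a median of 0.18 and 0 past the threshold in edgeR. At an unadjusted p under 0.05 in edgeR were 1 higher and 1 lower, beside 4.25% of all genes higher and 7% lower. Cd1d1, which presents lipids to NKT cells and lies outside the class II region, had 30.3 ± 1.4 CPM in burn against 25.1 ± 0.5 in NC. Every burn library lay above every NC library, the log2 difference was 0.27 (SE 0.07), and the adjusted p was 0.393 in edgeR and 0.043 in DESeq2. Reads shared with its near copy Cd1d2 may be split by the counting, so its value is uncertain. Cd80, a ligand of CD28, stood at 6.06 ± 0.85 and 8.64 ± 2.26 CPM, a difference of -0.51 (SE 0.18, edgeR adjusted p 0.393), while Cd40 differed by 0.27 (SE 0.15). Of 6 neighbours in the class II region, 5 had higher values and 1 a lower value in burn, with a median of 0.05 and 0 at an unadjusted p under 0.05 in edgeR or past the threshold in DESeq2. The peptide transporter genes Tap1 and Tap2 differed by 0.12 and 0.04 and the immunoproteasome subunits Psmb8 and Psmb9 by 0.12 and 0.06. Brd2, a bromodomain gene between H2-Oa and H2-DMb2, differed by 0.02, and Btnl2, a butyrophilin-like gene beyond H2-Ea, by -0.15.

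Markers of B cells moved with the class II genes. All 16 had a higher value in burn (background 54.7%), with a median log2 difference of 0.31 and 0 past the threshold in edgeR. At an unadjusted p under 0.05 in edgeR were 5, all higher, beside 4.25% of all genes in that direction. The summed level of the 16 was 4913 to 7068 CPM in burn and 4465 to 5898 in NC, and none was at 0 in any library. The B cell coactivator Pou2af1 differed by 0.59 (SE 0.16, edgeR adjusted p 0.393) and Ighm, the IgM heavy chain and the B cell gene of highest level, by 0.20 (SE 0.14). Over the 10 libraries, Pearson's r of log2 CPM with the mean log2 CPM of the list was 0.62 for H2-DMb1 to 0.93 for H2-Ob, with a median of 0.84. Of 30 such relations of the 10 genes with 3 marker lists, adjusted together, 8 passed for the B cell list and not H2-DMa (r 0.71, permutation p 0.026, adjusted p 0.057) or H2-DMb1 (r 0.62, permutation p 0.055, adjusted p 0.096).

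H2-Ob had r 0.93 with the B cell list (permutation p 0.00014, adjusted p 0.0021) and Spearman's rho 0.95 (permutation p 0.00013, adjusted p 0.0031). Ciita had r 0.90 (permutation p 7e-05, adjusted p 0.0021) and rho 0.94 (permutation p 0.00021, adjusted p 0.0031). H2-DMb2 had r 0.92 (permutation p 0.00028, adjusted p 0.0028) and rho 0.88 (permutation p 0.0017, adjusted p 0.017), and H2-Ab1 r 0.90 (permutation p 0.00094, adjusted p 0.0056) and rho 0.85 (permutation p 0.0030, adjusted p 0.023). By rho, these 4 passed and the other 6 did not. Without burn 4 and NC 3, the libraries farthest from the median of the list, r was 0.37 for H2-DMb1 and 0.88 to 0.97 for the other 9. Within the 6 burn libraries r was 0.45 for H2-DMb1 (exact permutation p 0.35) and 0.84 to 0.99 for the other 9 (exact permutation p 0.0014 to 0.047). NC 3, lowest by the mean log2 CPM of the B cell list, was lowest for H2-Ob and Ciita too, but held the highest or second highest NC level of the classical chains and Cd74. By summed CPM of the list, NC 3 stood at 4799, above NC 1 at 4746 and NC 2 at 4465. The part of gene length in the level of the list in NC 3 was not tested. Without 1 library, 5 to 9 of the 10 genes passed, with 5 left without burn 2, burn 4 or NC 2. The labels give no batch within which to repeat these relations.

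**Figure D5:**
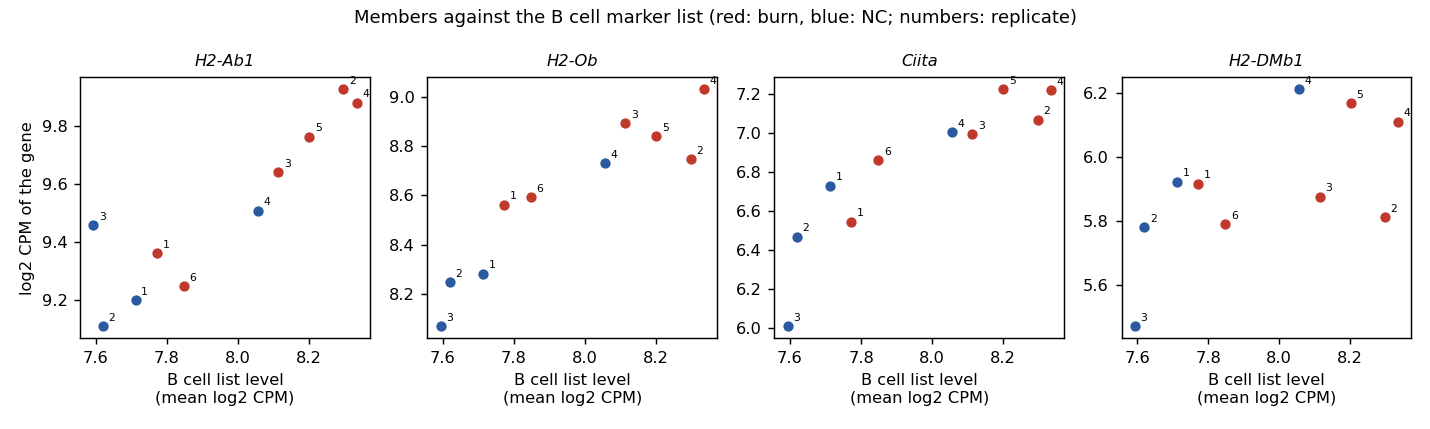
Log2 CPM of H2-Ab1, H2-Ob, Ciita and H2-DMb1 against the mean log2 CPM of 16 B cell markers in 10 libraries (red, burn; blue, NC; numbers, replicate). H2-Ob and Ciita follow the list over both groups (r 0.93 and 0.90), H2-Ab1 has NC 3 above the other libraries of like B cell level, and H2-DMb1 is scattered (r 0.62).

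With the B cell list level as a covariate in edgeR, the median log2 difference of the 10 genes was 0.02 in place of 0.35. H2-Oa then differed by 0.17 (SE 0.19) and H2-Ob by 0.14 (SE 0.12), while H2-Ab1 (-0.0091), Cd74 (-0.06), H2-DMa (-0.04) and H2-DMb1 (-0.13) changed sign. The edgeR adjusted p was 0.9987 for each of the 10. The list's level and the group label move together in these libraries, so this value does not tell them apart.

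Dendritic cell markers went the other way. Of 10, 9 had lower values in burn, where 54.7% of all genes had higher values, with a median of -0.41 and 0 past the threshold in edgeR. At an unadjusted p under 0.05 in edgeR were 3, all lower, beside 7% of all genes in that direction. The 10 markers were rare, at 78.5 to 95.05 CPM summed in burn and 91.9 to 118 in NC, with none at 0. Itgax, at 40.2 CPM in burn, and Ccr9, at 27.4, were the highest, and Ccr9 alone had a higher value in burn. Cd209a, a lectin of dendritic cells, had 1.28 ± 0.26 CPM in burn against 3.08 ± 1.14 in NC, a log2 difference of -1.27 (SE 0.26). Each burn value lay below each NC value, and the adjusted p was 0.393 in edgeR and 0.0050 in DESeq2. Correlation of the 10 class II genes with this list ran from -0.90 for H2-Ob (permutation p 0.00082, adjusted p 0.0056, rho -0.76, without NC 1 and 3 -0.82) to -0.53 for H2-DMb1, and only H2-Ob and H2-DMb2 (r -0.74, permutation p 0.017, adjusted p 0.0499) passed by r, and none by rho. Within burn, r for H2-Ob was -0.64 (exact permutation p 0.154). Of 10 monocyte markers, 3 had higher and 7 lower values, with a median of -0.03, and r ran from -0.09 for Ciita to 0.55 for H2-DMa, with 0 passing. Within burn, r with the monocyte list ran from 0.31 for H2-Aa to 0.89 for H2-DMb1 (exact permutation p 0.044, not adjusted), with 0.80 for Ciita and 0.77 for H2-Ob (exact permutation p 0.053 and 0.085). Lyz2, the monocyte and neutrophil lysozyme, stood at 3055 ± 528 and 3089.9 ± 377 CPM.

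Among markers of cells that make little class II, T cell genes had 6 higher and 4 lower values (median 0.04) and NK cell genes 0 higher and 7 lower (median -0.85). Plasma cell genes had 2 higher and 3 lower values (median -0.14), neutrophil genes 0 higher and 6 lower (median -1.12) and red cell genes 1 higher and 4 lower (median -0.18). The neutrophil list summed to 628 to 2163 CPM in burn and to 5365, 509, 844 and 4233 CPM in NC 1 to 4. The NK cell list summed to 194 to 295 CPM in burn and to 343, 563, 590 and 174 CPM in NC 1 to 4. NC 2 thus lay below every burn library for the neutrophil list, and NC 4 for the NK cell list. In none of these lists did a gene pass the threshold in edgeR. At an unadjusted p under 0.05, all with lower values in burn, were 6 of the NK cell genes, 1 of the plasma cell genes, 2 of the neutrophil genes and 0 of the T cell and red cell genes, beside 7% of all genes in that direction. Klrk1, the NKG2D receptor of NK cells, had 30.0 ± 2.9 CPM in burn against 56.6 ± 24.1 in NC, with an adjusted p of 0.393 in edgeR and 0.043 in DESeq2. The part of each of these cell types in the class II values was not tested.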

How the data were processed

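The authors deposited a table of read counts per gene and FPKM for 6 burn and 4 NC libraries, per the file headers. The deposited FPKM equalled counts divided by library total and a gene length to within a relative 2.9e-13. Paired-end mRNA libraries were made from TRIzol-extracted RNA, per the labels' protocols, and reads were placed on mm10, per the submitters' processing notes. The sources used here do not give the aligner, the counter or its handling of strand. Counts were filtered with filterByExpr (minimum count 10), scaled by TMM and tested in edgeR 4.0.16 (R 4.3.3, quasi-likelihood test, Benjamini-Hochberg adjustment over 17268 genes, threshold 0.05), after the script had been tested on simulated data. There it called 32% of genes changed 1.5-fold and 82% of those changed 2-fold, with 6 false calls. The largest fold among the 10 genes, 1.39 for H2-Oa, lay below the smallest fold simulated, so a missing call says little at that size. DESeq2 1.42.0 and limma 3.58.1 gave alternatives. Ratios were compared by exact permutation over 210 splits, neighbours in level by 1024 sign flips, and correlations by 100000 permutations. Library totals were 30677206 to 36379663, and the lowest count among the 10 genes was 644, for H2-Oa in NC 1. Counting error was not measured by itself.

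The 10 genes and the lists were chosen with earlier results of these data known. From each list, up to 4 genes with the smallest p and the gene of highest FPKM could be named, besides the 10 genes and the 10 most like the classical chains and Cd74. Rfxap, Rfxank, Nfya, Nfyb, Nfyc and Tap2 were named for their roles, after their values had been seen. Of the gene identifiers, 30367 were in GENCODE release 21.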

Additional observations from a re-analysis of the deposited data

Results flagged for a closer look

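In NC, 1 ratio had a library far from the others. The FPKM ratio of H2-Aa to H2-Ab1, the chains of the I-A molecule, was 0.762 in NC 4 and 0.799, 0.800 and 0.798 in NC 1 to 3, so that the gap took 0.949 of the group's range. Of 34 groups of values examined this way 1 was flagged. If chance flags about 1 in 20, then 1 flag among 34 groups is no more than chance gives. In burn the ratio ran from 0.784 to 0.874.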

How the results depend on the processing

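No gene of the 10 passed under any alternative, and the lowest adjusted p was 0.068, for H2-Ob without NC 4. Over all genes, 85 passed in DESeq2, 1 in limma on log2(FPKM + 1) and 1 on log2(FPKM + 0.1), against 0 in edgeR; leaving out 1 library gave 0 to 10, with 10 without burn 1 and 3 without NC 4. The median difference of the 10 genes was 0.25 to 0.42 without 1 library and 0.021 with the B cell list as a covariate, where H2-Ab1 (-0.0091), Cd74 (-0.058), H2-DMa (-0.042) and H2-DMb1 (-0.13) reversed. H2-DMb1 ranged from -0.061 to 0.17 without 1 library and reversed without NC 3. The ratio of H2-DMa to H2-Oa was -0.26 to -0.22 and of H2-DMb1 to H2-Ob -0.38 to -0.30 without 1 library, and the latter was -0.20 with the H2-DMb counts added, an alternative chosen after seeing the data like the transcript length. Cd74 to H2-Ab1 was -0.13 to -0.072, H2-Eb1 to H2-Ab1 -0.00094 to 0.072, reversing without NC 1, and Ciita to H2-Ab1 -0.12 to 0.21, reversing without NC 3. The genes correlated with the B cell list numbered 5 to 9 without 1 library and 10 on log2(FPKM + 1). Fewer splits are possible for the ratios without any 1 library, and the cause of these changes was not tested. The replicate block gave 0 genes and a median of 0.39 for the 10. Deviations of same-numbered libraries had r of -0.05, -0.04, -0.07 and 0.34 for numbers 1 to 4, and only number 4 matched itself best. The sources used here do not say whether the numbers pair the samples, and these 4 values cannot decide it. Of the 9 pairs in the order of levels, 8 to 9 passed without 1 library, with 9 without burn 2 or NC 3. With the transcript length 8 passed, in another order. Cd74 to H2-Ab1 passed without burn 6, and the calls of the 2 H2-DM to H2-DO ratios changed as given with each. All other settings kept direction and call.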

Other observations

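The T cell side of class II recognition was read from a pair of receptor genes. Cd4, the coreceptor that binds class II molecules, had 207 ± 24 CPM over the 6 burn libraries and 181 ± 46 over the 4 NC libraries (mean ± SD), a log2 difference of 0.19 (SE 0.15, edgeR adjusted p 0.660). Lag3, an inhibitory receptor for class II, stood at 1.33 ± 0.29 and 1.90 ± 0.85 CPM, a log2 difference of -0.51 (SE 0.30, edgeR adjusted p 0.529). Neither difference passed the threshold.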
